A study of Mus musculus with 6 samples.

Results

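Luteinizing hormone (LH) and follicle-stimulating hormone (FSH) act on the ovary through 2 receptors that raise cyclic AMP (cAMP). The transcripts of this route were followed in whole ovaries of Bnc1+/+ and Bnc1tr/tr mice through 9 genes: the receptors Lhcgr and Fshr, the protein kinase A (PKA) subunits Prkar1a, Prkar2b and Prkaca, the CREB family factors Creb1 and Crem, the phosphodiesterase Pde4d and the G protein regulator Rgs2. The genes were picked by symbol, with the difference between the genotypes already known, and all 9 were found among the 44788 rows of the count table and passed the filter on low counts. Their levels and fold changes are therefore given as a description, without a p value. Other genes of the pathway, listed by role with earlier results of these data also known, were tested.

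RNA-seq was done on 3 Bnc1+/+ ovary samples (replicates 1, 4 and 7, wild type) and 3 Bnc1tr/tr ovary samples (replicates 1, 2 and 3), from mice of the C57BL/6 J strain that the labels give as 8 weeks old. Bnc1tr/tr mice are homozygous for a small deletion in exon 4 of Bnc1 that shifts the reading frame, and they carry it in every cell, so ovarian and systemic effects are both contained in the comparison. The Bnc1+/+ and Bnc1tr/tr mice came from matings of heterozygous parents. The labels state no treatment, cycle stage, sequencing batch or pooling and do not tie samples to animals or litters. The study describes the ovaries as biological replicates and its comparisons as between littermates, and p values measure the spread between these samples.

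Totals ran from 25247770 to 34406296 counts per ovary. Bnc1 was counted 375, 444 and 381 times in the Bnc1+/+ ovaries and 527, 355 and 326 times in the Bnc1tr/tr ovaries, and gene totals do not show which reads carried the deletion. Of 19423 genes tested with edgeR's quasi-likelihood test, 1372 (7.06%) had a Benjamini-Hochberg adjusted p under 0.05, with 2.88% of the tested genes higher and 4.19% lower in Bnc1tr/tr ovaries. Scaling by library size alone turned this balance around, with 1112 genes higher and 616 lower, and placed the median log2 fold change of all genes at 0.12 instead of 0.018. Summed markers of the oviduct ran from 23.1 to 135 CPM in Bnc1+/+ ovaries and were 9.42, 26.5 and 505 CPM in Bnc1tr/tr replicates 1, 2 and 3, which sets the last of these ovaries apart.

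Gonadotropin receptors are G protein-coupled receptors. Bound receptor activates the stimulatory G protein, adenylyl cyclase then makes cAMP, and cAMP releases the catalytic subunits of PKA from the regulatory subunits that hold them inactive. PKA phosphorylates CREB family factors among many other proteins, phosphodiesterases break cAMP down, and RGS proteins shorten G protein signals. In the ovary Fshr is known as a receptor of granulosa cells, while Lhcgr is carried by theca cells, by granulosa cells of preovulatory follicles and by luteal cells.

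Promoter sequences of the 9 genes were taken from RefSeq (GRCm38.p6), as windows from 250 bases before to 50 bases after an annotated start site. At least 1 window was at hand for 8 of the genes, 15 windows in all. The windows were searched for the cAMP response element (CRE) TGACGTCA, for its core letters TGACG or CGTCA, for the GC box GGGCGG or CCGCCC that Sp1 family factors bind, and for the E box CACGTG, on both strands. The whole CRE contains both core words, so those matches overlap. Among 32851 windows of the same length, 1.79% held the whole CRE, 20.8% a core word, 35.7% a GC box and 7.15% the E box. The 4 windows printed here belong to both receptors, to the gene with the largest positive fold change of the 9, and to the PKA subunit whose windows held the whole CRE. Each is written 5′ to 3′ along its gene, with the GC boxes in capitals for Lhcgr (chr17:88791965-88792264, minus strand), the E box for Fshr (chr17:89200626-89200925, minus strand) and the core words for Rgs2 (chr1:144004100-144004399, minus strand) and Prkar1a (chr11:109650699-109650998, plus strand).
Lhcgr: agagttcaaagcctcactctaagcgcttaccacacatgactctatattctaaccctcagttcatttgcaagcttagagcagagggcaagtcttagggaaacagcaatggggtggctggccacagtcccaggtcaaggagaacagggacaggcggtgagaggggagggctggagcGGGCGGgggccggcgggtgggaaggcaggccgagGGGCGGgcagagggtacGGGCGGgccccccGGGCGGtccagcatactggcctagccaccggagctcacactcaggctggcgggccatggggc
Fshr: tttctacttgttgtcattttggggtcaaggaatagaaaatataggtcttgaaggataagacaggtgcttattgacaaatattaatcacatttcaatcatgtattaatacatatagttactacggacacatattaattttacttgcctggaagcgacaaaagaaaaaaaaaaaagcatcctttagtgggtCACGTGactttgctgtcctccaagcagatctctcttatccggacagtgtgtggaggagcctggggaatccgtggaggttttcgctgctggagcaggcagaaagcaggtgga
Rgs2: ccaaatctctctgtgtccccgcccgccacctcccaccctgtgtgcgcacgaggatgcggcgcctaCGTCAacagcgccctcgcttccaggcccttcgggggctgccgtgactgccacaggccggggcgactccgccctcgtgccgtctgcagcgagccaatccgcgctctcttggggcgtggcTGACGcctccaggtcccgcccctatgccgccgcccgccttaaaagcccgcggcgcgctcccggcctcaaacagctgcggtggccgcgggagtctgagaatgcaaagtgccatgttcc
Prkar1a: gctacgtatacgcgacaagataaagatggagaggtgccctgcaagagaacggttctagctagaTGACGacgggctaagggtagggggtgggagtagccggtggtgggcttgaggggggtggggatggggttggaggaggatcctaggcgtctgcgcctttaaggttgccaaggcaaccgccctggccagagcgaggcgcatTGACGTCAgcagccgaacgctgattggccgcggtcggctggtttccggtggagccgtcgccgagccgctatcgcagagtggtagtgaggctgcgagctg
The receptor windows differed in the letters they held. The Lhcgr window held 4 GC boxes, the nearest at position -12 from the start site, and no match to the E box or to a core word. The Fshr window held 1 E box, at position -61, and matched none of the other searched letters. The Rgs2 window held 2 core words, at positions -185 and -67, together with 4 GC boxes. In Prkar1a the whole CRE lay at position -49 of the printed window and at position 38 of an overlapping window for another start site. Core words were found for 3 of the 8 genes with a window (Prkaca, Prkar1a and Rgs2). These are matches of letters, and factor binding was not measured.

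Lhcgr (chr17:88716481-88791990, minus strand) had the largest difference of the 9 genes. Expression is given as CPM, gene counts scaled to equal library totals after TMM normalization, so it is a level relative to all counts of the ovary. Lhcgr stood at 544, 799 and 727 CPM in Bnc1+/+ replicates 1, 4 and 7 and at 92.7, 85.9 and 78.9 CPM in Bnc1tr/tr replicates 1, 2 and 3. The groups were far apart, and the Bnc1tr/tr ovaries lay close together while the Bnc1+/+ ovaries were more spread. The means were 690 ± 132 and 85.8 ± 6.91 CPM (SD, n = 3 each), 8.04-fold lower in Bnc1tr/tr ovaries. The log2 fold change was -3.01, with a standard error of 0.16 and a 95% interval from -3.38 to -2.64. The 14 alternative settings kept it between -3.16 and -2.90.

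Most of the luteal markers moved with Lhcgr. The markers of this and every other cell type were named after their values were seen, so counts of markers past the test are a description. Of 8 luteal markers, 6 fell in Bnc1tr/tr ovaries, where 4.19% of all tested genes did, and the list had a median log2 fold change of -1.49. The markers that passed were Star, Cyp11a1, Hsd3b1, Prlr, Ptgfr and Sfrp4. Akr1c18, the progesterone-degrading enzyme of the regressing corpus luteum, did not pass and averaged 54.6 ± 45.4 and 32.0 ± 34.9 CPM (SD, n = 3 each). Parm1 did not pass either (log2 fold change -0.37), and its values overlapped between the genotypes. The summed level of the 8 markers ran from 20508 to 24530.3 CPM in Bnc1+/+ and from 6624 to 11896 CPM in Bnc1tr/tr ovaries. In whole ovaries, fewer cells of a type and less RNA per cell cannot be told apart, and the part of luteal tissue in the Lhcgr difference was not tested. Whether steroid-making cells other than luteal cells added to the summed level was not tested either. Of 5 theca cell markers 1 rose (Nr2f2), where 2.88% of all tested genes did. Their sum ran from 275 to 365 CPM in Bnc1+/+ and from 339 to 662 CPM in Bnc1tr/tr ovaries. Cyp17a1 varied widely, at 8.62, 124 and 21.6 CPM in Bnc1+/+ replicates 1, 4 and 7 and 235, 3.65 and 5.46 CPM in Bnc1tr/tr replicates 1, 2 and 3. Neither Cyp17a1 nor Insl3 (log2 fold change -0.23) passed.
Set against these markers, Lhcgr made up 2.65%, 3.26% and 3.06% of the summed luteal CPM in Bnc1+/+ replicates 1, 4 and 7. In Bnc1tr/tr replicates 1, 2 and 3 the shares were 1.40%, 0.722% and 0.763%, so Lhcgr was lower relative to this sum. Leading the sum were Cyp11a1 (means of 10148 and 3543 CPM in Bnc1+/+ and Bnc1tr/tr ovaries) and Hsd3b1 (8422 and 5108 CPM). Relative to Star, Sfrp4 or Ptgfr alone, Lhcgr overlapped between the genotypes. The share was chosen after the values were seen. In the plot of receptors against markers, Bnc1tr/tr replicate 1 has the lowest luteal sum of all ovaries but the highest Lhcgr of its genotype.

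**Figure D1:**
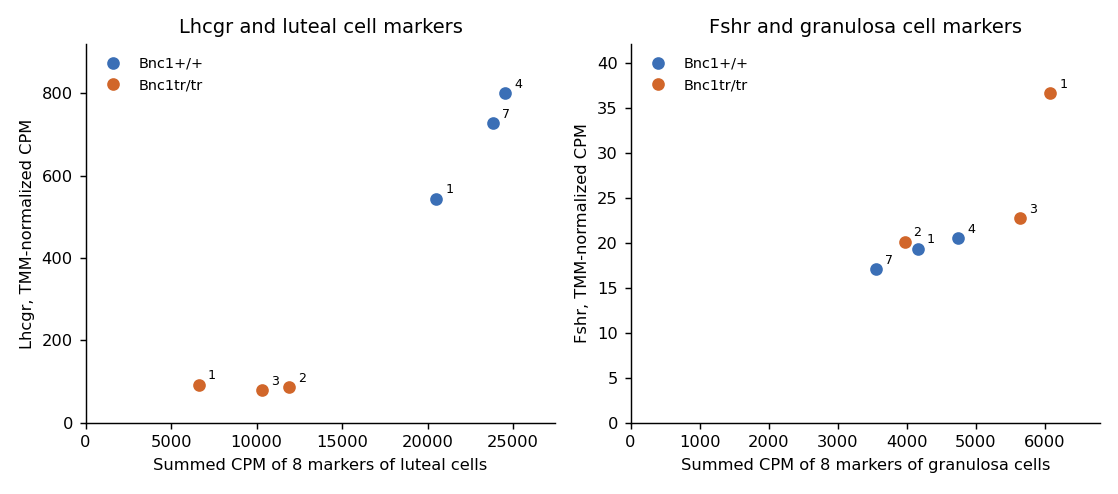
Lhcgr (left) and Fshr (right) in TMM-normalized CPM, against the summed CPM of 8 luteal or 8 granulosa cell markers. Each point is an ovary, numbered by replicate, blue for Bnc1+/+ and orange for Bnc1tr/tr. Lhcgr separates into a group at 544 to 799 CPM and a group at 78.9 to 92.7 CPM, whereas the Fshr values of the genotypes overlap.

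Fshr (chr17:88984952-89200675, minus strand) did not separate the genotypes. It stood at 19.4, 20.5 and 17.1 CPM in Bnc1+/+ replicates 1, 4 and 7 and at 36.6, 20.1 and 22.7 CPM in Bnc1tr/tr replicates 1, 2 and 3. Only Bnc1tr/tr replicate 1 was well above the rest, and replicate 2 lay within the Bnc1+/+ range. The log2 fold change was 0.48 (standard error 0.22), with a 95% interval from -0.02 to 0.99. Without Bnc1tr/tr replicate 1 it was 0.17.
Granulosa cell markers were summed for comparison, at 3551 to 4740 CPM in Bnc1+/+ and 3967 to 6074 CPM in Bnc1tr/tr ovaries. The highest sum belonged to Bnc1tr/tr replicate 1, the ovary with the most Fshr. Amh, a hormone of small growing follicles, was the marker of the 8 that passed the test, at 174 ± 25.7 and 363 ± 102 CPM (SD, n = 3 each, edgeR with Benjamini-Hochberg adjustment, adjusted p = 0.0294). Of all tested genes 2.88% rose. The 8 markers had a median log2 fold change of -0.024, and 3 of them were positive. Foxl2 was lower without overlap (log2 fold change -0.29) but did not pass. Fshr made up 0.433% to 0.480% of the granulosa sum in Bnc1+/+ and 0.403% to 0.603% in Bnc1tr/tr ovaries, and these ranges overlapped.
Per kilobase of exon, a scale on which genes can be compared, the receptor levels were 90.3 ± 17.2 for Lhcgr and 8.04 ± 0.748 for Fshr in Bnc1+/+ ovaries (CPM per kb, SD, n = 3). In Bnc1tr/tr ovaries they were 11.2 ± 0.904 and 11.2 ± 3.75. The ratio of Lhcgr to Fshr was 8.68, 12.0 and 13.2 in Bnc1+/+ replicates 1, 4 and 7 and 0.782, 1.32 and 1.07 in Bnc1tr/tr replicates 1, 2 and 3. On this scale Bnc1tr/tr ovaries held receptor transcripts at similar levels, where Bnc1+/+ ovaries held mostly Lhcgr. The scale rests on joined exon lengths of 7645 bases for Lhcgr and 2360 bases for Fshr. Without division by length, Lhcgr still averaged 85.8 CPM against 26.5 CPM for Fshr in Bnc1tr/tr ovaries.

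**Figure D2:**
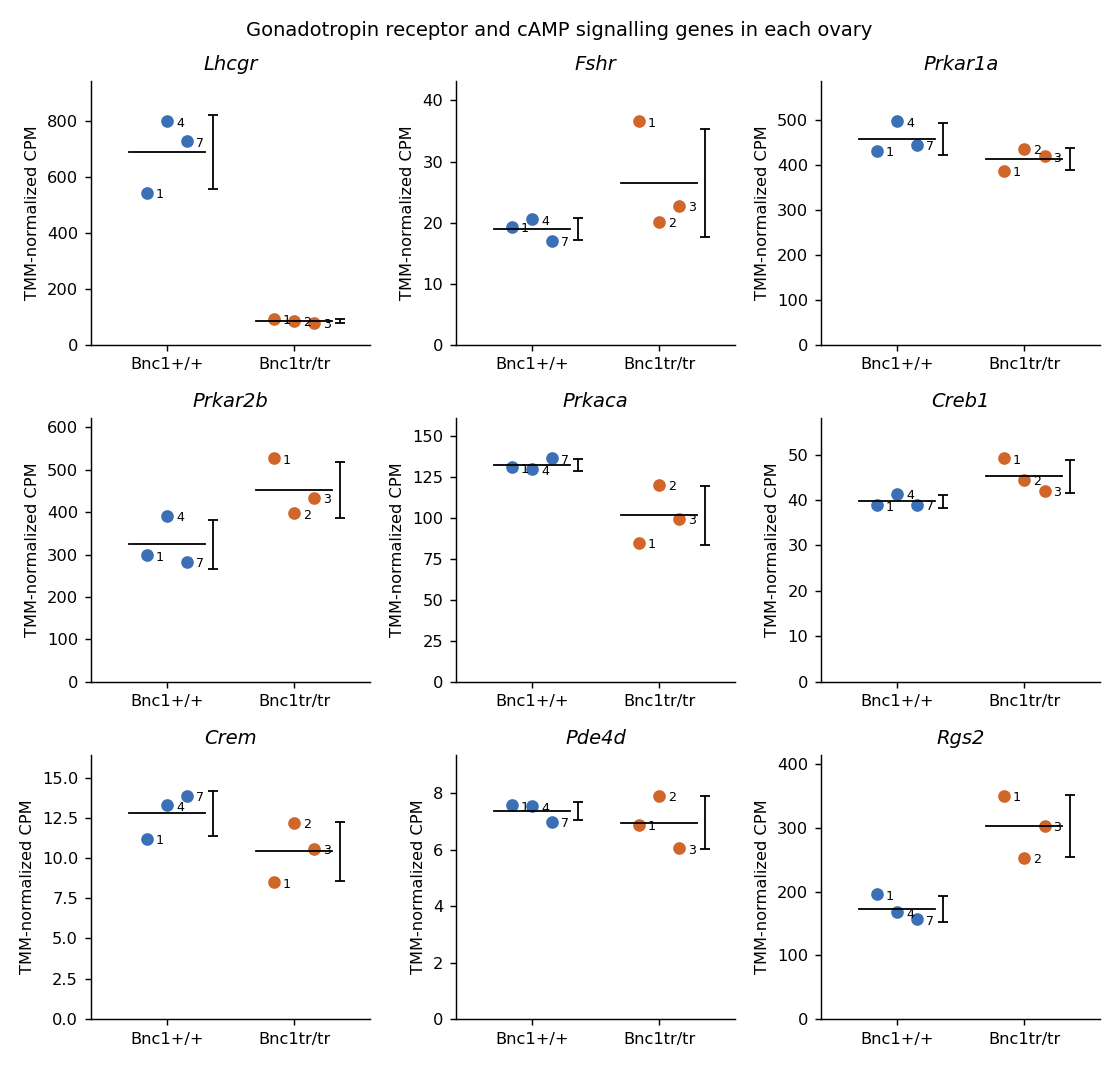
TMM-normalized CPM of the 9 genes in every ovary, with each vertical axis starting at 0. Points are ovaries numbered by replicate, horizontal lines are means and bars are SDs (n = 3). Lhcgr, Prkar2b, Prkaca, Creb1 and Rgs2 show no overlap between Bnc1+/+ and Bnc1tr/tr ovaries.

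The PKA holoenzyme pairs regulatory with catalytic subunits. Prkar2b encodes regulatory subunit RII beta, which is known to increase in granulosa cells under FSH, and was at 298, 391 and 284 CPM in Bnc1+/+ replicates 1, 4 and 7. In Bnc1tr/tr replicates 1, 2 and 3 it was at 527, 398 and 434 CPM. The groups did not overlap, but Bnc1tr/tr replicate 2 exceeded Bnc1+/+ replicate 4 by only a few CPM. The log2 fold change was 0.48 (standard error 0.15, 95% interval 0.12 to 0.84).
Prkar2b is also abundant in fat cells. The 5 adipocyte markers Adipoq, Plin1, Lep, Cfd and Fabp4 summed to between 16.03 and 82.8 CPM in Bnc1+/+ ovaries and to 296, 227 and 34.0 CPM in Bnc1tr/tr replicates 1, 2 and 3, with Plin1 the marker of the 5 that passed. Of all tested genes 2.88% rose, and the other 4 adipocyte markers overlapped between the genotypes. Bnc1tr/tr replicate 1 had both the largest adipocyte sum and the most Prkar2b. Replicate 3, with an adipocyte sum inside the Bnc1+/+ range, also had more Prkar2b than every Bnc1+/+ ovary. Its Plin1 level, 15.45 CPM, was likewise above the 8.91, 9.57 and 12.65 CPM of Bnc1+/+ replicates 1, 4 and 7. The part of fat cells in the Prkar2b difference was not tested.
Prkar1a, which encodes the widely expressed RI alpha, was at 432, 497 and 444 CPM in Bnc1+/+ and 386, 436 and 419 CPM in Bnc1tr/tr ovaries. These values overlapped, with a log2 fold change of -0.15 (standard error 0.094, 95% interval -0.36 to 0.072). Prkaca, the main catalytic subunit gene, was at 131, 130 and 137 CPM in Bnc1+/+ and at 85.1, 120 and 99.6 CPM in Bnc1tr/tr ovaries. It was lower in every Bnc1tr/tr ovary, most in replicate 1 and least in replicate 2, with a log2 fold change of -0.38 (standard error 0.13, 95% interval -0.67 to -0.09). The table also lists the pseudogene Prkaca-ps1, with 22 to 40 counts per ovary against 2394 to 4304 for Prkaca.

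The make-up of the regulatory transcripts differed without overlap between the genotypes. Prkar2b made up 42.5% ± 2.84 of the 4 regulatory subunit transcripts per kb in Bnc1+/+ ovaries and 52.7% ± 4.90 in Bnc1tr/tr ovaries (SD, n = 3 each). Prkar1a went the other way, at 51.1% ± 1.99 and 41.0% ± 4.55 (SD, n = 3 each). Prkar2a and Prkar1b together added only a small part in each ovary.
Prkaca was 83.1% ± 0.152 of the catalytic transcripts in Bnc1+/+ ovaries and 78.2% ± 2.19 in Bnc1tr/tr ovaries (SD, n = 3 each). The ratio of regulatory to catalytic transcripts was 3.07, 3.73 and 2.94 in Bnc1+/+ replicates 1, 4 and 7. It was 5.51, 3.72 and 4.52 in Bnc1tr/tr replicates 1, 2 and 3, so that replicate 2 lay just below the highest Bnc1+/+ ovary and the ranges overlapped. Transcript ratios are not protein ratios, and they depend on the exon lengths used.

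**Figure D3:**
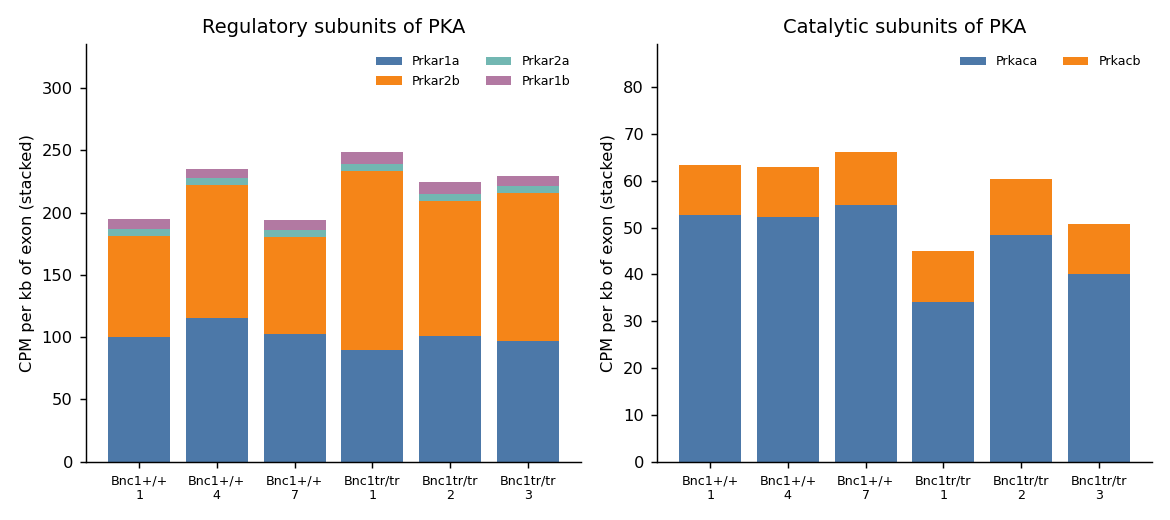
Stacked levels of the regulatory (left) and catalytic (right) PKA subunit transcripts in each ovary, in TMM-normalized CPM per kilobase of exon. Prkar2b is the larger of the main regulatory parts in the Bnc1tr/tr ovaries and Prkar1a in the Bnc1+/+ ovaries, and the Prkaca part is lower in the Bnc1tr/tr bars.

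The nuclear end of the route showed small differences. Creb1, which encodes the cAMP-responsive factor CREB, was at 38.8, 41.4 and 39.0 CPM in Bnc1+/+ and 49.2, 44.4 and 42.1 CPM in Bnc1tr/tr ovaries. The ranges were separate by less than 1 CPM, with a log2 fold change of 0.19 (standard error 0.088, 95% interval -0.02 to 0.39). Crem, whose promoters give activators as well as the repressor ICER, was at 11.2, 13.3 and 13.9 CPM in Bnc1+/+ and 8.49, 12.2 and 10.6 CPM in Bnc1tr/tr ovaries. The genotypes overlapped, with a log2 fold change of -0.30 (standard error 0.16, 95% interval -0.67 to 0.079). Counts per gene do not separate ICER from the other Crem transcripts.

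Among the brakes on the route, Rgs2 differed and Pde4d did not separate. Rgs2 encodes a small RGS protein that speeds GTP hydrolysis by G protein alpha subunits, and lies at chr1:143999338-144004161 (minus strand). It stood at 196, 167 and 157 CPM in Bnc1+/+ replicates 1, 4 and 7 and at 351, 254 and 303 CPM in Bnc1tr/tr replicates 1, 2 and 3. Every Bnc1tr/tr ovary lay above every Bnc1+/+ ovary, by 1.75-fold in the fit. The log2 fold change was 0.81 (standard error 0.14, 95% interval 0.48 to 1.13), and it ran from 0.69 to 0.92 under the alternatives.
As a share of the granulosa marker sum, Rgs2 was 4.71%, 3.53% and 4.41% in Bnc1+/+ ovaries, against 5.78%, 6.39% and 5.37% with the mutation, without overlap. This share, like that of Fshr, was chosen after the values were seen. Oocyte markers were also higher in part, with 3 of 10 (Gdf9, Bmp15 and Oosp1) past the test, where 2.88% of all tested genes rose. Their sum ran from 543 to 704 CPM in Bnc1+/+ and from 670 to 1026 CPM in Bnc1tr/tr ovaries, and the part of oocytes in the Rgs2 difference was not tested. Pde4d, a cAMP phosphodiesterase known to be raised by gonadotropins in granulosa cells, was at 7.58, 7.55 and 6.995 CPM in Bnc1+/+ and 6.89, 7.92 and 6.05 CPM in Bnc1tr/tr ovaries. The log2 difference was -0.084 (standard error 0.15, 95% interval -0.44 to 0.27), and its sign turned to 0.015 with library size alone and to 0.0068 without Bnc1tr/tr replicate 3.

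Across the 9 genes, 2 were past the adjusted threshold of the fit over all genes, Lhcgr lower and Rgs2 higher, where 7.06% of all tested genes were. The values of Bnc1+/+ and Bnc1tr/tr ovaries were without overlap for 5 of the 9, against 30.8% of all tested genes. Both counts come from the contrast with which the genes were picked. The median log2 fold change was -0.084 for the 9 genes and 0.018 for all tested genes, and the median absolute value was 0.38 against 0.21. Rgs2 no longer passed without Bnc1+/+ replicate 4 or 7 or without Bnc1tr/tr replicate 3, at log2 fold changes of 0.77, 0.73 and 0.81.

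**Figure D4:**
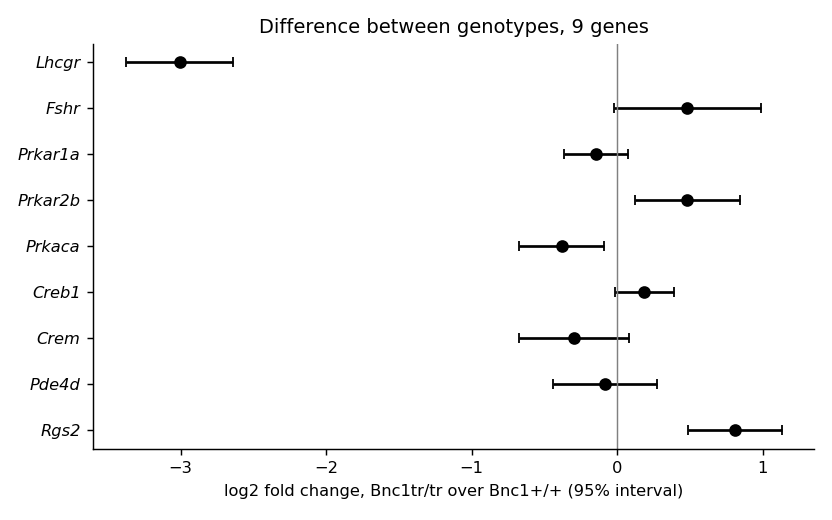
Log2 fold change of Bnc1tr/tr over Bnc1+/+ ovaries for the 9 genes, with 95% intervals from the fit across all genes. Lhcgr lies near -3.01, Rgs2 and Prkar2b lie wholly above 0, Prkaca lies wholly below 0, and the other intervals include 0.

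The order of levels per kilobase of exon also differed. In Bnc1+/+ ovaries Prkar1a (106 ± 8.05), Lhcgr (90.3 ± 17.2) and Prkar2b (88.8 ± 15.96) led with overlapping spread, in CPM per kb with SD over 3 ovaries. Prkaca (53.3 ± 1.43) and Rgs2 (47.7 ± 5.57) followed and were likewise close. Fshr came next at 8.04 ± 0.748, ahead of Creb1 at 2.89, Crem at 2.17 and Pde4d at 0.614. In Bnc1tr/tr ovaries Prkar2b led at 124 ± 18.3, ahead of Prkar1a at 95.7 ± 5.80 and Rgs2 at 83.5 ± 13.5, the latter pair not separated by their spread. Lhcgr took the place beside Fshr. Exons of all annotated transcripts were joined for the length, which can place genes with long alternative exons, such as Creb1, too low.

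Genes whose log2 CPM followed the receptors most closely were sought among 11403 other genes with a mean of at least 10 CPM. For Lhcgr the nearest were Ryr1, Slc47a1, Cited1, Atp11a and Cyfip1, with Pearson's r between 0.997 and 0.998 over the 6 ovaries. Their log2 fold changes ran from -3.75 for Ryr1 to -0.56 for Cyfip1. For Fshr the nearest were Rrp8, Bcar3, Pcgf6, Scaf8 and Gorasp2, with r between 0.989 and 0.995 and log2 fold changes between 0.14 and 0.29. These values are descriptions over few points that share a library and, for Lhcgr, the genotype split. For Fshr, Bnc1tr/tr replicate 1 stood apart at 36.6 CPM, against 17.1 to 22.7 CPM in the other ovaries, and weighs heavily in r.

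The question of how the remaining pathway differed was asked of 148 further genes in 12 lists, of which 131 were tested. These lists, too, were chosen with earlier results of these data known, so the share of a list called is a description. The edgeR test with Benjamini-Hochberg adjustment over all genes called 12 of them (9.16%), 11 lower and 1 higher in Bnc1tr/tr ovaries, where 7.06% of all tested genes were called. The median log2 fold change of the 131 genes was 0.016, and 66 of them had a positive value. The G protein, RGS and response gene lists held 9 of the 12 calls.

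**Figure D5:**
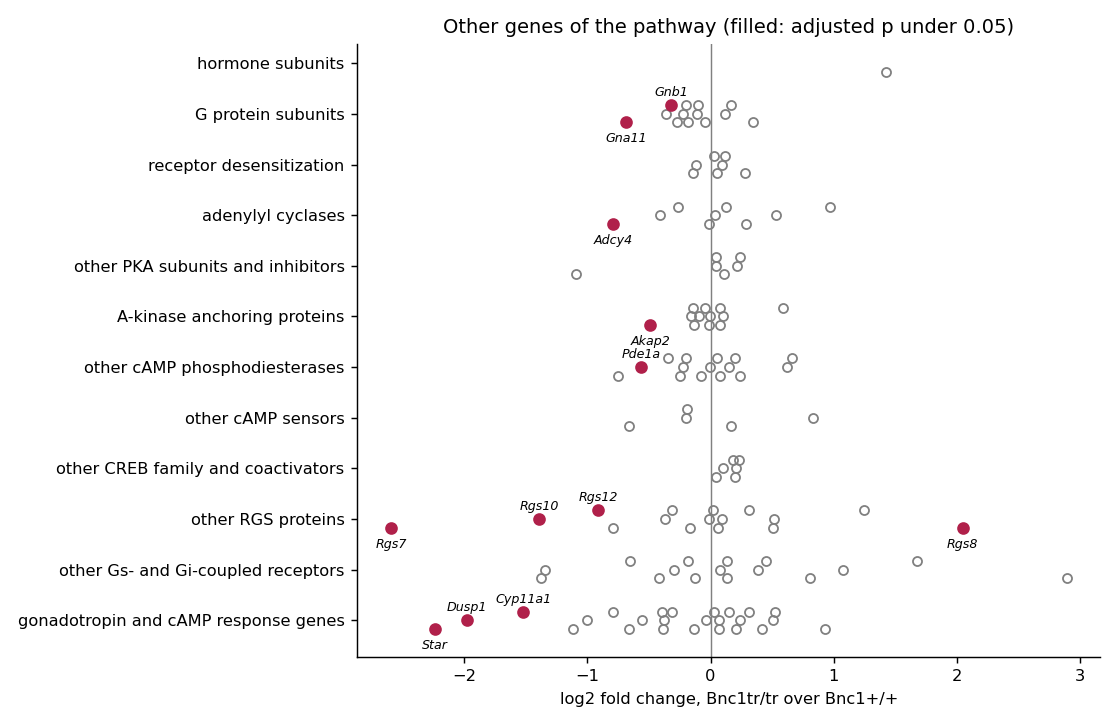
Log2 fold change of Bnc1tr/tr over Bnc1+/+ ovaries for the 131 other pathway genes tested, by list. Each point is a gene, filled and named where the adjusted p was under 0.05, and the vertical line marks 0. All filled points but Rgs8 lie left of the line.

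Between receptor and cyclase, 2 of 13 G protein subunit genes fell (15.4%, where 4.19% of all tested genes fell and 7.06% were called in either direction). Gna11, an alpha subunit of the Gq family that couples receptors to phospholipase C, was at 257, 293 and 251 CPM in Bnc1+/+ and 158, 169 and 172 CPM in Bnc1tr/tr ovaries. The groups stood well apart, with a log2 fold change of -0.69 (standard error 0.091, edgeR with Benjamini-Hochberg adjustment, adjusted p = 0.00634). Gnb1, a beta subunit, fell from 340 ± 1.38 to 272 ± 12.8 CPM (SD, n = 3 each, edgeR with Benjamini-Hochberg adjustment, adjusted p = 0.0489) and lost its call under 9 of 14 alternatives. Gnas, the stimulatory alpha subunit of gonadotropin receptors, named for that role, averaged 1316 ± 53.0 and 1229 ± 60.5 CPM (SD, n = 3 each) and did not pass, at a log2 fold change of -0.10 (edgeR with Benjamini-Hochberg adjustment, adjusted p = 0.546). Gnb2, highest of the list per kb, averaged 522 and 448 CPM and did not pass either.
Among 9 tested adenylyl cyclases Adcy4 fell (11.1% of the list, against the same 4.19%), from 18.2, 19.9 and 25.6 CPM in Bnc1+/+ to 11.5, 13.7 and 11.7 CPM in Bnc1tr/tr ovaries. The log2 difference was -0.79 (standard error 0.15, edgeR with Benjamini-Hochberg adjustment, adjusted p = 0.0253), and the call was lost under 4 of 14 alternatives. Adcy4 is known from endothelium. Of 5 endothelial markers 3 fell (Pecam1, Cdh5 and Kdr), where 4.19% of all tested genes did, and the sum of the 5 ran from 587 to 787 CPM in Bnc1+/+ and from 392 to 466 CPM in Bnc1tr/tr ovaries, and their part in the Adcy4 difference was not tested. Adcy9, the cyclase gene with the highest level per kb, averaged 151 ± 11.9 and 126 ± 9.09 CPM (SD, n = 3 each) and did not pass.

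Downstream of cAMP, 1 of 15 other phosphodiesterases and 1 of 12 tested A-kinase anchoring proteins fell (6.67% and 8.33%). Of all tested genes 4.19% fell and 7.06% were called in either direction. Pde1a, a calcium-dependent phosphodiesterase, went from 36.5 ± 1.65 to 24.7 ± 3.71 CPM (SD, n = 3 each, edgeR with Benjamini-Hochberg adjustment, adjusted p = 0.0346), a log2 fold change of -0.56 whose call was lost under 6 of 14 alternatives. Akap2, which tethers PKA, went from 137 ± 12.0 to 97.3 ± 3.899 CPM (SD, n = 3 each, edgeR with Benjamini-Hochberg adjustment, adjusted p = 0.0208), a log2 fold change of -0.49. Akap2 shares exons with the annotated gene Pakap, so its reads could have been split or shared.
The highest levels per kb in these lists belonged to Pde8a, at 55.7 and 48.6 CPM, and Akap1, at 124 and 131 CPM, and neither passed. For the 6 other PKA subunit and inhibitor genes edgeR called 0, with 2 at an unadjusted p under 0.05 and 0 called by DESeq2 or limma-voom. The catalytic subunit gene Prkacb averaged 95.3 and 98.6 CPM, and the PKA inhibitor Pkig, highest per kb of the 6, 52.1 and 56.3 CPM.
Lists without a call in edgeR were also the 7 receptor kinases and arrestins (0 at an unadjusted p under 0.05, and 0 by DESeq2 or limma-voom), the 5 other cAMP sensors (0 by each measure) and the 6 CREB family and coactivator genes (1 unadjusted, and 0 by DESeq2 or limma-voom). The leading genes of these lists per kb were Grk2 at 129 and 117 CPM, Rapgef4 at 51.0 and 57.4 CPM, and Crtc2 at 62.9 and 65.0 CPM.

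RGS proteins gave the most calls of any list, 4 of 16 tested (25%), with Rgs2 not counted, where 7.06% of all tested genes were called. Rgs7 fell from 5.20, 8.81 and 11.2 CPM in Bnc1+/+ to 1.56, 1.346 and 1.27 CPM in Bnc1tr/tr ovaries, a log2 fold change of -2.59 (standard error 0.31, edgeR with Benjamini-Hochberg adjustment, adjusted p = 0.00443). It belongs to the R7 group that acts on inhibitory G proteins. Rgs10 fell from 64.5, 78.1 and 61.6 CPM to 19.4, 29.1 and 29.5 CPM, a log2 fold change of -1.39 (standard error 0.18, edgeR with Benjamini-Hochberg adjustment, adjusted p = 0.00549).
Rgs12, a large multidomain member, fell from 168, 160 and 205 CPM to 78.6, 105 and 100 CPM, a log2 fold change of -0.91 (standard error 0.14, edgeR with Benjamini-Hochberg adjustment, adjusted p = 0.011). Rgs7, Rgs10 and Rgs12 passed under all 14 alternatives, and their direction was opposite to that of Rgs2. Rgs8 was higher, on only 3, 6 and 3 counts in Bnc1+/+ and 14, 11 and 22 counts in Bnc1tr/tr ovaries, and passed under 7 of 13 alternatives (edgeR with Benjamini-Hochberg adjustment, adjusted p = 0.0333). Antisense genes are annotated across exons of Rgs12 and Rgs8, and whether reads were counted by strand is not given in the sources used here.

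Of 25 tested genes known to respond to gonadotropins or cAMP, 3 (12%) fell, where 4.19% of all tested genes fell and 7.06% were called in either direction. Dusp1, a phosphatase of MAP kinases and an immediate early gene, fell from 98.8, 144 and 133 CPM in Bnc1+/+ to 31.4, 28.8 and 35.5 CPM in Bnc1tr/tr ovaries. On the log2 scale this was -1.98 (standard error 0.16, edgeR with Benjamini-Hochberg adjustment, adjusted p = 0.00127), and it passed under all 14 alternatives. Dusp1, with 749 to 4783 counts per ovary, overlaps exons of Ergic1 on the opposite strand. Ergic1 had 4589, 6169 and 5066 counts in Bnc1+/+ and 3713, 3202 and 3694 counts in Bnc1tr/tr ovaries, so it was lower there too. Whether Ergic1 reads entered the Dusp1 counts was not tested.
The other calls were Star (2124 ± 468 to 451 ± 274 CPM, SD, n = 3 each) and Cyp11a1 (10148 ± 959 to 3543 ± 1445 CPM, SD, n = 3 each), which carry out the first steps of steroid synthesis and also stand in the luteal list. Inha, the highest of the list per kb over all ovaries although below Cyp11a1 in Bnc1+/+ ovaries, averaged 2208 and 3132 CPM and did not pass. The early genes Fos, Jun, Nr4a1 and Egr1 did not pass, at log2 fold changes of 0.21, 0.031, -1.004 and -0.56. The ovulatory genes Areg and Ptgs2 were too low to be tested, with at most 22 counts in an ovary.
Of 16 tested receptors of other hormones that act through cAMP, edgeR called 0, while 7 had an unadjusted p under 0.05, and DESeq2 called 4 and limma-voom 0. Adora1, an adenosine receptor and the highest of this list per kb, was at 57.7, 79.5 and 125 CPM in Bnc1+/+ and 30.3, 50.1 and 22.9 CPM in Bnc1tr/tr ovaries (edgeR with Benjamini-Hochberg adjustment, adjusted p = 0.0599). Gonadotropin subunits, made in the pituitary, were near the floor, with Cga and Fshb at no more than 9 counts in an ovary and Lhb at 0.634 ± 0.479 and 1.69 ± 1.13 CPM (SD, n = 3 each).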

How the data were processed

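Total RNA of 6 ovary samples was extracted with TRIzol, and single-end libraries made with an Ion Total RNA-Seq kit were run on an Ion Proton. Raw counts per gene symbol, not normalized, were deposited by the authors. The submitters' processing notes name the builds mm10 and Sscrofa10.2, whose roles are not stated. The aligner, counter and annotation are not given in the sources used here.

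Genes were filtered with filterByExpr (minimum count 10), scaled by TMM and tested by the two-sided quasi-likelihood F test of edgeR 4.0.16 under R 4.3.3, with p values adjusted (Benjamini-Hochberg) over 19423 genes and a threshold of 0.05. Standard errors were taken from the fold change and its F statistic. Older symbols (Adrbk1, Adrbk2, Emr1) were matched through RefSeq synonyms. GENCODE M21 on GRCm38 gave positions and joined exon lengths.

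The 9 genes and all lists were chosen with earlier results of these data known. Named from the wider pathway lists were every gene past the threshold and the highest per kb, and for each receptor the 5 nearest genes. Gnas, Prkacb, Fos, Jun, Nr4a1, Egr1, Areg, Ptgs2, Cga and Fshb fell outside this rule and, like the cell type markers, were named after their values were seen. Alternatives were size factors of DESeq2 1.42.0, library size alone, no filter, at least 10 counts in every ovary, DESeq2, limma-voom (limma 3.58.1), a robust fit, no ribosomal RNA rows, and leaving out each ovary. The fit was tested on simulated data.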

Additional observations from a re-analysis of the deposited data

How the results depend on the processing

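Over all genes, DESeq2 called 2420 (1340 lower, 1080 higher) against 1372 (813 lower, 559 higher) in edgeR, and library size alone called 1112 higher. Leaving out each ovary in turn gave 320 to 1282 calls, 226 to 662 lower and 94 to 620 higher, with 781, 320 and 518 without Bnc1+/+ replicates 1, 4 and 7 and 634 without Bnc1tr/tr replicate 3. Of the other pathway genes DESeq2 called 19 (17 lower, 2 higher) against 12 (11 lower, 1 higher). The genes called higher numbered 4 with library size alone, 2 without a filter, 2 in the robust fit and 0 with at least 10 counts in every ovary, where Rgs8 was not tested. Leaving out each ovary gave 5 to 14 calls, 5 to 12 lower and 0 to 2 higher. They were 5 without Bnc1+/+ replicate 4, 6 without Bnc1+/+ replicate 7 and 6 without Bnc1tr/tr replicate 3. The median log2 fold change of the 9 genes lay between -0.19 and 0.0068 with single ovaries omitted, and was 0.015 with library size alone. Lhcgr, Gna11, Rgs7, Rgs10, Rgs12 and Dusp1 kept direction and call under all 14 alternatives. Star lost its call under 5 of 14, Cyp11a1 under 4 and Akap2 under 3, and for none of the 12 genes called did the direction change. The cause of these shifts was not tested. No paired analysis was possible because the labels tie no ovaries to a shared litter and the genotypes have only the replicate number 1 in common.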
